A study of Mus musculus with 21 samples.

Results

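The genes described here are 10 hypothalamic peptide genes that govern feeding, arousal and hormone release: Agrp, Pomc, Cartpt, Hcrt, Pmch, Oxt, Avp, Trh, Gal and Ghrh. They were listed by name with no threshold on a measured value, although earlier results of these data were known, and all 10 were found among the 55401 genes of the count table. RNA was sequenced from the forebrains of 21 mice that were homozygous for human APOE2, APOE3 or APOE4 in place of mouse Apoe, on a C57BL6 background. The parental groups E2H, E3H and E4H held 3 mice each, aged 9 to 10 months, and carried no tau transgene. Their PS19 counterparts, PS/E2H, PS/E3H or PS/E4H by line, numbered 4 mice each and carried in addition 1 allele of the PS19 transgene, which expresses human tau with the P301S mutation under the prion promoter, on a B6/C3H background. PS19 animals were sampled at the stage of paralysis, and their transgene came from a B6/C3H background. Tau, paralysis, age at death and strain background therefore cannot be told apart in a comparison with parental mice. In such bulk tissue, fewer cells of a type and less RNA per cell cannot be told apart either. The comparisons asked which peptide genes differ in paralyzed PS19 mice, and whether APOE genotype alters their level.

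The hypothalamus is a small ventral region of the forebrain in which neurons that secrete peptides control appetite, sleep, water balance, stress and growth. Neurons of the arcuate nucleus make either Agrp, which drives feeding, or Pomc with Cartpt, which restrain it. Neurons of the lateral hypothalamus make orexin (Hcrt) or melanin-concentrating hormone (Pmch), and the magnocellular neurons send oxytocin (Oxt) and vasopressin (Avp) to the pituitary. Trh and Ghrh release pituitary hormones, and galanin (Gal) is a co-transmitter of many of these neurons. Cartpt, Trh and Gal are also made outside the hypothalamus.

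In the GENCODE annotation of GRCm38, each of the 10 is a protein-coding gene. Agrp lies on chromosome 8 (105566698 to 105637393, minus strand), Pomc on chromosome 12 (3954951 to 3960642, plus strand) and Cartpt on chromosome 13 (99898489 to 99901091, minus strand). Hcrt lies on chromosome 11 (100761069 to 100762931, minus strand) and Pmch on chromosome 10 (88091072 to 88092375, plus strand). Oxt (130576173 to 130577054, plus strand) and Avp (130580620 to 130582554, minus strand) are neighbours on chromosome 2, with 3565 bases between their facing ends, and Ghrh lies on the same chromosome (157329497 to 157347506, minus strand). Trh lies on chromosome 6 (92242061 to 92244650, minus strand) and Gal on chromosome 19 (3409915 to 3414544, minus strand).

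Some of the counts rest on sequence that is shared with another gene. The mature oxytocin and vasopressin peptides are encoded by 27 bases each, shown here because their genes are the closest relatives in the list, with capitals at the 5 bases that differ:
Oxt: tgctacAtccagaactgcccCCTGggc
Avp: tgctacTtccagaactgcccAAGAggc
The differences, counted from 1 at the 5′ end with the Oxt base written before the position, are A7T, C21A, C22A, T23G and G24A. Further along, the coding sequences hold an identical run of 127 bases, which is printed because reads inside it cannot be told apart:
Oxt and Avp: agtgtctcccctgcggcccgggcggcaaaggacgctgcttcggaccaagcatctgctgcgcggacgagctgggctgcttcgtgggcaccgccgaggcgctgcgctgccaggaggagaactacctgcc
Of the distinct 50-base windows of the Oxt transcript, 16% occurred in the Avp transcript, and 14.8% of the Avp windows occurred in Oxt. Reads were sequenced in pairs, so a fragment with an end outside a shared stretch can still be placed. Shares of windows are therefore not shares of the counts. Pmch shared 48.4% of its windows with Parpbp on the opposite strand, and Agrp shared 6.76% with Gm5914 on its own strand and the same share with Ctcf on the opposite strand. Parpbp was counted at 0.544 to 2.76 CPM (counts scaled to library size by TMM), with its lowest and its highest value in the same mice as those of Pmch. Reads from Pmch and from this antisense partner cannot be told apart here, since it is not stated whether strand was used in the counting. Cartpt, Gal, Ghrh, Hcrt, Pomc and Trh shared no window with another gene.

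Pmch and Hcrt mark neighbouring populations of the lateral hypothalamus and had the highest correlation of any pair of the 10, most of it carried by 1 mouse. The 60 bases before the start of each gene are therefore shown from RefSeq (GRCm38.p6), 5′ to 3′, with the letters TATAA in capitals:
Pmch (chr10:88091012-88091071, plus strand): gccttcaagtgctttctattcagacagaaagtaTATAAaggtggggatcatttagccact
Hcrt (chr11:100762932-100762991, minus strand): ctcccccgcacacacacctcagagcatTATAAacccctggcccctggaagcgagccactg
On the gene's own strand, TATAA began 40 to 20 bases before the start in 5 of the 9 peptide genes with a promoter in that table, namely Pmch, Hcrt, Pomc, Trh and Ghrh. Of all 32851 promoters in the table, 3.52% held the letters in that window, and 22.8% held them on either strand within 250 bases.

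Libraries held 59265459 to 75932183 counts. Xist, the RNA of the inactive X chromosome, was at 205.5 to 482.5 CPM in 17 libraries, and at 2.54 to 2.89 CPM in the other 4, which carried Y-linked transcripts. The study's text describes most of these mice as male, while GEO's labels are silent on the sex of each animal. The libraries with low Xist were E4H mouse 3, PS/E2H mouse 2 and PS/E4H mice 1 and 4, so that the counts show the reverse of the stated sexes, group by group. Markers of the tissue were present: each of 13 hypothalamic transcription factors was counted in some mice, among them Otp at a median of 2.08 CPM and Nkx2-1 at 1.99 CPM. Those factors had a summed level of 4.47 to 14.7 CPM in parental and 6.87 to 16.2 CPM in PS19 mice.

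1 parental library stood apart. E4H mouse 2 had the lowest level of all 21 mice for 7 of the 10 peptide genes and for 5 of the 13 hypothalamic transcription factors, a position it held for 6.66% of the 22863 genes tested, a share that reached 8.99% in E2H mouse 2. For 3 further factors it was at 0 together with other mice. Pmch was at 0.319 CPM in this mouse (24 counts, exact 95% Poisson interval 0.204 to 0.474 CPM, which covers counting error only) and at 24.7 and 27.9 CPM in the other E4H mice, a difference of 82.6-fold. Hcrt had 0 counts of 74756427, which allows up to 0.0401 CPM, against 440 and 233 counts in the other E4H mice, so that it was at least 78.1-fold below the lower of them with a floor of 3 counts. Oxt was 9.67-fold, Gal 6.72-fold, Ghrh 6.18-fold (5 counts), Pomc 4.47-fold and Avp 3.94-fold below the mean of the other E4H mice. Trh was 2.01-fold below it, and Cartpt (1.22-fold) and Agrp (1.08-fold, 27 counts) were close to it. Of the factors, Otp was 15.2-fold below that mean, whereas Sim1, Rax and Hmx2 lay within the range of the other E4H mice. The same mouse was lowest for all 5 genes of the monoamine neuron list (Hdc, Th, Ddc, Slc6a3 and Slc18a2). The dopamine transporter Slc6a3 was at 0.504 CPM in it, 34.6-fold below the mean of the other E4H mice. Those were far apart, at 4.60 and 30.3 CPM, and the next lowest of all mice was at 0.713 CPM. E4H mouse 2 was also lowest for 3 of 6 thalamic markers. It was lowest for 0 of 6 markers of cortex and hippocampus and for 0 of 6 of striatum. Many of the fold changes over all lines and within the APOE4 line are therefore given with and without it.

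**Figure D1:**
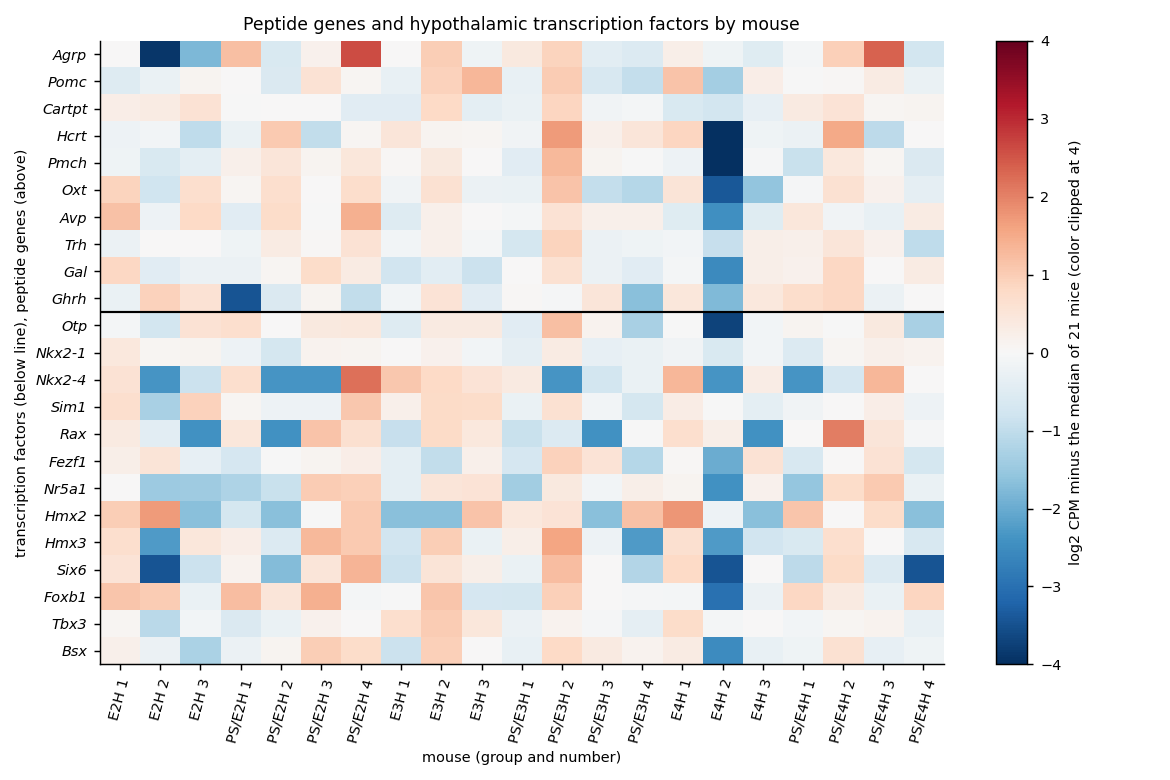
Level of the 10 peptide genes (above the line) and 13 hypothalamic transcription factors (below it) in each of 21 mice, as log2 CPM minus the gene's median over the mice, with color clipped at 4. The column of E4H mouse 2 is the lowest of 21 for 7 peptide genes and 5 factors, with 3 more at 0 as in other mice, and PS/E3H mouse 2 is high for Hcrt, Pmch, Oxt and Trh.

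Compared per length of transcript, Pmch was the most abundant of the 10, with a median of 36.5 FPKM (fragments scaled to transcript length and library size) over 21 mice. Avp followed at 18 FPKM, Oxt at 8.85, Cartpt at 7.38, Trh at 7.14, Hcrt at 4.46, Gal at 2.56, Pomc at 1.03, Ghrh at 0.411 and Agrp at 0.367 FPKM. The order was firm in places only. Pomc exceeded Ghrh in 21 of 21 mice and Avp exceeded Oxt in 20, whereas Oxt exceeded Cartpt in 14 of 21, Cartpt exceeded Trh in 14 and Ghrh exceeded Agrp in 10.

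Agrp encodes the peptide of the hunger neurons and was among the rarest of the 10, with 0 to 159 counts a library. In parental mice it was at 0.411, 0 and 0.0964 CPM in E2H, at 0.420, 0.849 and 0.363 CPM in E3H, and at 0.491, 0.358 and 0.282 CPM in E4H. The 0 in E2H mouse 2 allows up to 0.0491 CPM. In PS19 mice it was at 0.993, 0.256, 0.471 and 2.68 CPM in PS/E2H, at 0.547, 0.796, 0.303 and 0.271 CPM in PS/E3H, and at 0.388, 0.824, 2.26 and 0.233 CPM in PS/E4H. The highest values came from PS/E2H mouse 4 and PS/E4H mouse 3, and each PS19 group overlapped its parental group. Over all APOE lines the log2 fold change of PS19 over parental mice was 1.17 ± 0.56 (SE), which did not pass the test (edgeR quasi-likelihood test, Benjamini-Hochberg adjusted p = 0.148). Without PS/E4H mouse 3 it was 0.85, and on the log2(FPKM + 1) scale, which understates changes at low levels, it was 0.32. In the APOE2 line it was 2.63 ± 1.05 (adjusted p = 0.394 by the same test), and it ranged from 1.71 without PS/E2H mouse 4 to 4.35 without E2H mouse 1. By that test the log2 fold change of Agrp was -0.19 ± 0.51 in the APOE3 line (adjusted p = 0.886). In the APOE4 line it was 1.29 ± 0.70 (adjusted p = 0.253, edgeR quasi-likelihood test).

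None of the 10 peptide genes was called in that comparison, at an adjusted p under 0.05 and a fold of at least 2, where 2.6% of all genes tested were called. By unadjusted p under 0.05 there was 1 of the 10, Agrp, beside 32.2% of all genes, and DESeq2 called none. The log2 fold change lay above 0 for 8 of the 10, with a median of 0.31 beside -0.006 for all genes. These signs are not independent, since the peptide genes varied together between mice. Some of these fold changes, none of which passed the test, depended in part on E4H mouse 2. Without it, Pmch fell from 0.49 to 0.32, Avp from 0.40 to 0.24 and Gal from 0.53 to 0.37. Of the glial markers, 6 of 6 astrocyte and 7 of 8 microglial genes rose in the same mice by adjusted p. The summed level of 6 astrocyte markers was 2594 to 3183 CPM in parental and 4078 to 6067 CPM in PS19 mice, with no overlap, and Gfap was called higher with a log2 fold change of 2.68 (edgeR quasi-likelihood test, adjusted p = 2.26e-11). Of the region and cell markers, 5 of 6 of cortex and hippocampus and 3 of 6 of neurons were lower by adjusted p. In choroid plexus 4 of 10 were higher. The 5 monoamine neuron genes all had a log2 fold change above 0, and only Ddc passed (0.94, edgeR quasi-likelihood test, adjusted p = 0.000735). Of all genes, 21% passed the adjusted p alone, in either direction. The part of these cell types in the peptide values was not tested.

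**Figure D2:**
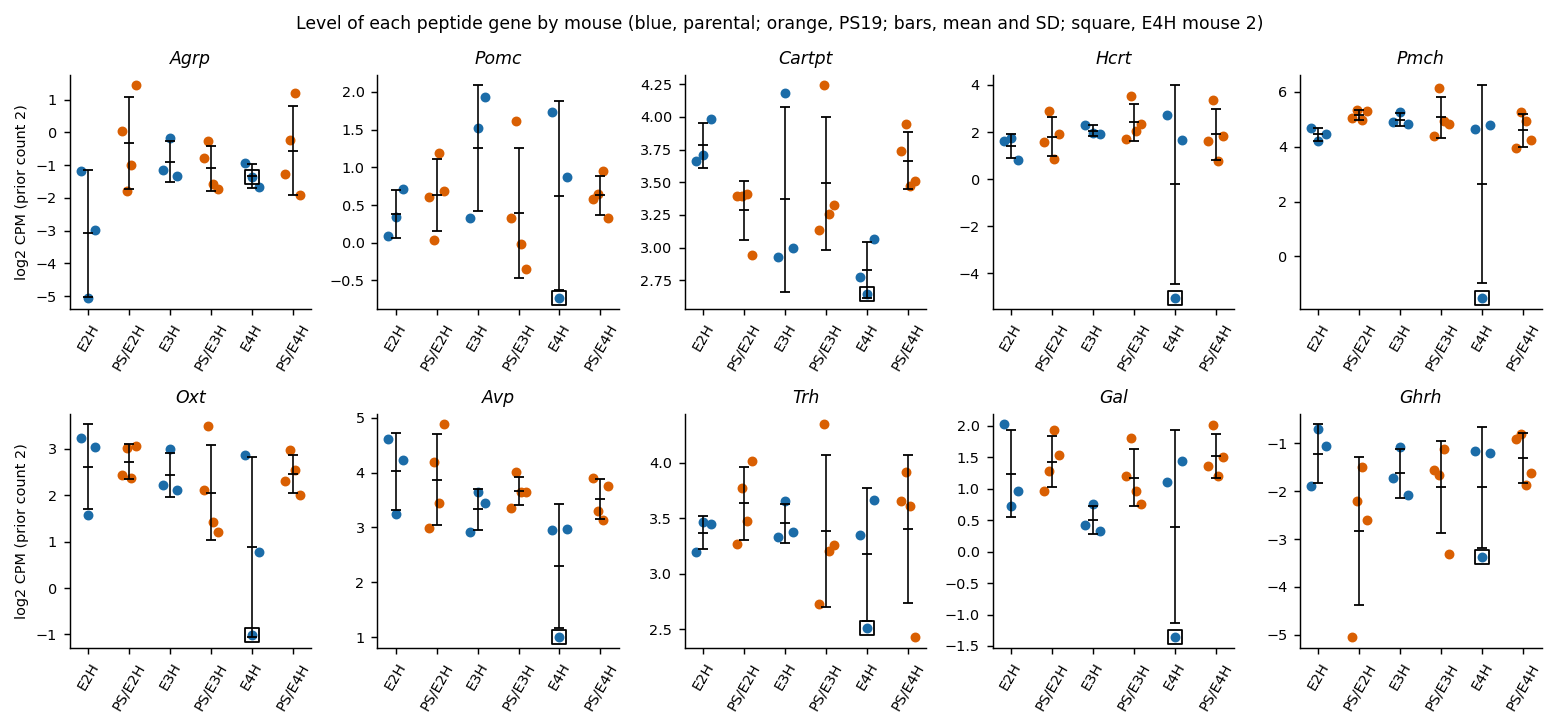
Level of each peptide gene by mouse, as log2 CPM with a prior count of 2, in parental (blue) and PS19 (orange) mice of each APOE line; bars give the mean and SD of the group and a square marks E4H mouse 2. Cartpt is higher in every PS/E4H mouse than in every E4H mouse and lower in every PS/E2H mouse than in every E2H mouse, and Hcrt and Pmch are near the bottom of the axis in E4H mouse 2.

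Pomc, the precursor of the satiety peptide alpha-MSH, ranged from 0.571 CPM in E4H mouse 2 to 3.77 CPM in E3H mouse 3. Its median was 1.61 CPM in the 9 parental and 1.48 CPM in the 12 PS19 mice, and the groups overlapped. The log2 fold change over all lines was -0.29 ± 0.29 (edgeR quasi-likelihood test, adjusted p = 0.547), -0.42 without E4H mouse 2 and -0.11 without E4H mouse 1. In the APOE4 line it was -0.31 ± 0.46 with all mice, and -0.73 ± 0.30 without E4H mouse 2 (adjusted p = 0.201). Pituitary cells make Pomc too: the summed level of 9 pituitary markers was 0.901 to 8.49 CPM in parental and 1.04 to 4.02 CPM in PS19 mice, and Lhb was at 0 in all. Of the 4 pituitary markers that could be tested, Prl was called lower in PS19 mice (log2 fold change -4.65, adjusted p = 0.00734), whereas Tshb was higher by adjusted p alone (0.62, adjusted p = 0.0334). The part of pituitary tissue in the Pomc values was not tested.

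Cartpt, the precursor of CART peptides, was the peptide gene that passed the adjusted p in 1 comparison. Over all lines its log2 fold change was 0.12 ± 0.19 and did not pass (edgeR quasi-likelihood test, adjusted p = 0.72). Within the APOE4 line Cartpt was at 6.83, 6.22 and 8.34 CPM in E4H mice and at 13.3, 15.4, 11.1 and 11.3 CPM in PS/E4H mice. Every PS/E4H mouse was higher than every E4H mouse. Avp was the other peptide gene for which these groups did not overlap, which makes 2 of 10, beside 26.8% of all genes. The log2 fold change was 0.84 ± 0.15 and passed the adjusted p but not the limit of 2-fold (edgeR quasi-likelihood test, adjusted p = 0.00684), in a comparison in which 15.6% of all genes passed that p and 2.98% were called. It was the only 1 of the 160 tests of a peptide gene, over 16 comparisons, with an adjusted p under 0.05. Without E4H mouse 2 it was 0.75 ± 0.18 (adjusted p = 0.0416). With all 21 mice sharing 1 estimate of the spread it was 0.84 ± 0.28 (adjusted p = 0.0507), and without the libraries with low Xist it was 1.01 ± 0.20 and was called (adjusted p = 0.0306).

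In the APOE2 line Cartpt lay the other way. It was at 12.6, 13.1 and 15.8 CPM in E2H mice and at 10.5, 10.5, 10.6 and 7.65 CPM in PS/E2H mice, so that every PS/E2H mouse was lower than every E2H mouse. Between these groups 11% of all genes did not overlap. The log2 fold change of -0.50 ± 0.15 did not pass the test (edgeR quasi-likelihood test, adjusted p = 0.235), in a comparison in which 0.485% of all genes were called. In the APOE3 line the groups overlapped, at 7.58, 18.2 and 7.95 CPM in E3H and 8.77, 18.9, 9.53 and 10.01 CPM in PS/E3H mice. E3H mouse 2 and PS/E3H mouse 2 were the high ones, and the log2 fold change of 0.061 ± 0.34 turned to -0.26 without PS/E3H mouse 2. The difference between the APOE4 and the APOE2 line in the response of Cartpt was 1.34 ± 0.22 on the log2 scale. Its unadjusted p was 2.57e-05 and its adjusted p 0.182 by the edgeR quasi-likelihood test, which called 0 of 22031 genes in that interaction, while 2223 genes had an unadjusted p under 0.05. DESeq2 called 107 genes, with Cartpt among them (adjusted p = 0.000106). Over the other alternatives and all mice left out in turn the difference was 1.15 to 1.54, above 0 in each.

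Between lines, Cartpt lay lower in E4H than in E2H mice with no overlap (log2 fold change -0.95 ± 0.15, edgeR quasi-likelihood test, adjusted p = 0.0824, and -0.86 without E4H mouse 2), and lay higher in PS/E4H than in PS/E2H mice with no overlap (0.38 ± 0.15, adjusted p = 0.366). Of all genes, 0.187% and 0.109% were called in these comparisons, and Cartpt was not; 20.2% and 6.37% did not overlap. The tau and the line comparisons use the same mice, so that the low E4H values enter both.

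**Figure D3:**
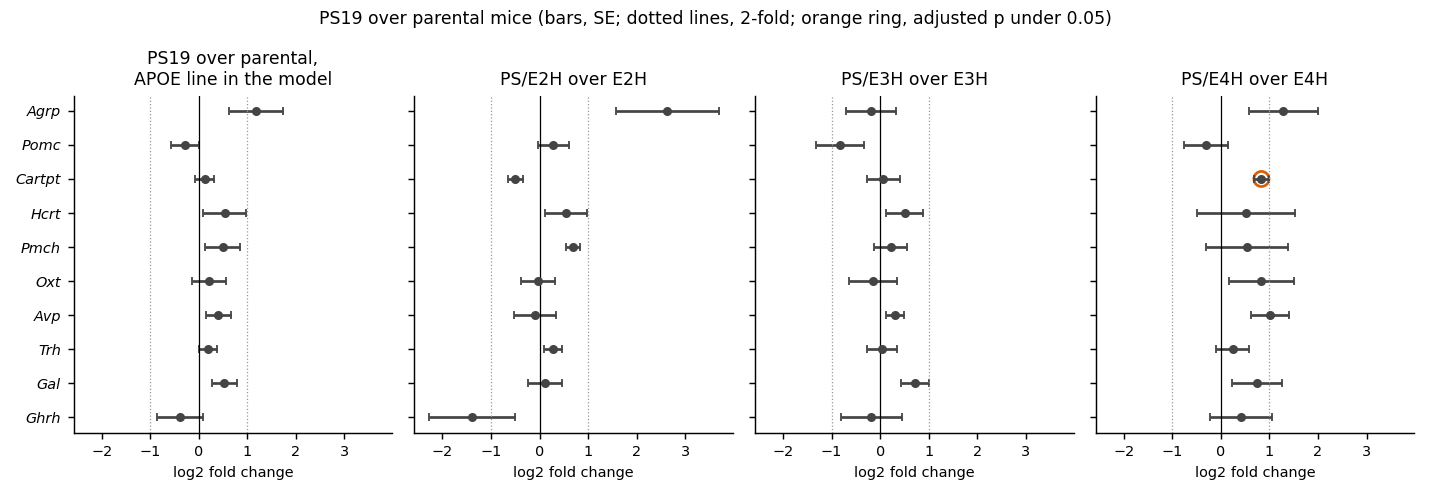
Log2 fold change of PS19 over parental mice for each peptide gene, with its SE, over all APOE lines and within each; dotted lines mark 2-fold and an orange ring marks an adjusted p under 0.05. The ring is on Cartpt in the APOE4 line at 0.84. Agrp has the largest value, with a wide error, over all lines and in the APOE2 and APOE4 lines, but lies at -0.19 in the APOE3 line.

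Hcrt and Pmch, the peptides of arousal and energy balance in the lateral hypothalamus, were highest in the same mouse. Pmch was at 25.5, 18.5 and 21.7 CPM in E2H, at 29.4, 37.9 and 28.6 CPM in E3H, and at 24.7, 0.319 and 27.9 CPM in E4H mice. In PS19 mice it was at 33.0, 40.1, 31.0 and 39.0 CPM in PS/E2H, at 20.7, 70.03, 30.8 and 28.2 CPM in PS/E3H, and at 15.2, 38.3, 30.4 and 19.0 CPM in PS/E4H. Every PS/E2H mouse was above every E2H mouse, whereas the other lines overlapped. Between PS/E2H and E2H mice, 11% of all genes did not overlap, in either direction. In the APOE2 line the log2 fold change was 0.70 ± 0.14, which did not pass the test (edgeR quasi-likelihood test, adjusted p = 0.0665), whereas it passed the adjusted p alone by DESeq2 (0.00033). Over all lines it was 0.49 ± 0.36 (adjusted p = 0.376), and 0.32 without E4H mouse 2. Within the APOE4 line it was 0.54 ± 0.85 with E4H mouse 2 and -0.031 ± 0.31 without it.

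Hcrt ranged from 0 CPM in E4H mouse 2 to 11.6 CPM in PS/E3H mouse 2, with a median of 3.29 CPM in parental and 3.64 CPM in PS19 mice. PS/E2H mouse 2 at 7.33 CPM and PS/E4H mouse 2 at 10.3 CPM were also high. Over all lines the log2 fold change was 0.53 ± 0.45 (edgeR quasi-likelihood test, adjusted p = 0.457), 0.36 without E4H mouse 2 and 0.31 without PS/E4H mouse 2. For APOE4 mice it was 0.52 ± 1.01, and -0.060 ± 0.61 without E4H mouse 2.

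Oxt and Avp are the hormones of the magnocellular neurons, which regulate lactation, birth and water balance. Avp was at 24.3, 9.42 and 18.7 CPM in E2H, at 7.51, 12.5 and 10.8 CPM in E3H, and at 7.69, 1.96 and 7.79 CPM in E4H mice. In PS19 mice it was at 7.88, 18.2, 10.8 and 29.4 CPM in PS/E2H, at 10.2, 16.01, 12.4 and 12.6 CPM in PS/E3H, and at 14.97, 9.80, 8.78 and 13.5 CPM in PS/E4H. All E4H mice lay below all E2H mice and below all PS/E4H mice. Of all genes, 20.2% did not overlap between E4H and E2H mice, and 26.8% between PS/E4H and E4H mice, in either direction. With tau in the model, Avp had a log2 fold change of -0.95 ± 0.31 for APOE4 over APOE2 over 7 mice a line (edgeR quasi-likelihood test, adjusted p = 0.141), and -0.75 without E4H mouse 2. Of all genes, 0.258% were called in that comparison, with none of the 10 among them. Within the APOE4 line the log2 fold change of Avp was 1.01 ± 0.40 (adjusted p = 0.117), and 0.60 ± 0.22 without E4H mouse 2 (adjusted p = 0.156). For PS19 over parental mice of all lines it was 0.40 ± 0.25 (edgeR quasi-likelihood test, adjusted p = 0.293), and 0.24 without E4H mouse 2.

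Oxt ranged from 0.465 CPM in E4H mouse 2 to 11.2 CPM in PS/E3H mouse 2. Its median was 4.62 CPM in parental and 5.26 CPM in PS19 mice, and every PS19 group overlapped its parental group. The log2 fold change over all lines was 0.21 ± 0.35 (edgeR quasi-likelihood test, adjusted p = 0.742), and it ranged from 0.0087 without PS/E3H mouse 2 to 0.44 without E4H mouse 1, with 0.027 without E4H mouse 2. For APOE4 mice it depended on single animals: E4H mice were at 7.29, 0.465 and 1.70 CPM, and PS/E4H mice at 4.95, 7.78, 5.77 and 3.97 CPM. The log2 fold change there was 0.83 ± 0.67 with all mice (adjusted p = 0.447), 0.32 ± 0.49 without E4H mouse 2 (adjusted p = 0.769), and 2.38 ± 0.49 without E4H mouse 1, which was a call (adjusted p = 0.0250).

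**Figure D4:**
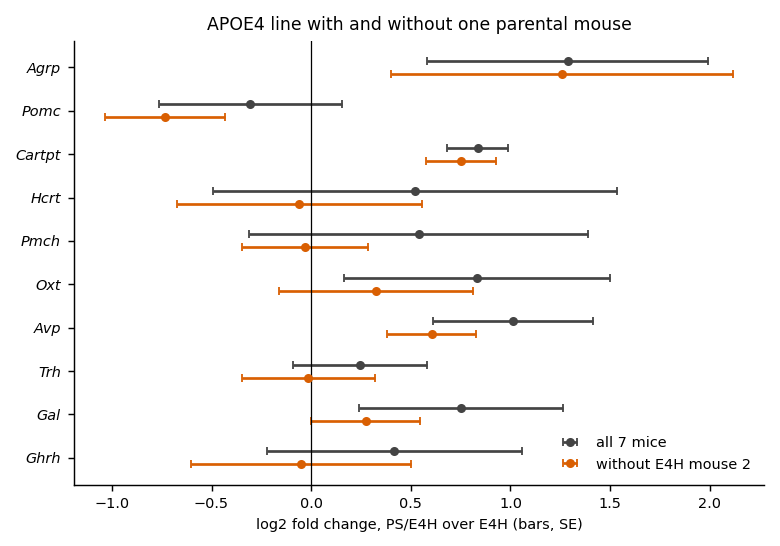
Log2 fold change of PS/E4H over E4H mice for each peptide gene, with its SE, with all 7 mice (dark) and without E4H mouse 2 (orange). Without that mouse, Hcrt, Pmch, Trh and Ghrh lie just below 0 and Cartpt stays at 0.75.

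The releasing hormones and galanin did not pass the test in any comparison. Trh, which releases thyrotropin, had overlapping groups: parental mice were at 5.67 to 12.6 CPM with a median of 10.3, and PS19 mice at 5.35 to 20.2 CPM with a median of 11.6 (log2 fold change 0.20 ± 0.19, edgeR quasi-likelihood test, adjusted p = 0.521, and 0.11 without E4H mouse 2 or 0.071 without PS/E3H mouse 2). Ghrh, which releases growth hormone, had at most 33 counts a library and 0 in PS/E2H mouse 1, which allows up to 0.0426 CPM. Its log2 fold change was -0.38 ± 0.47 (adjusted p = 0.635), and -0.58 without E4H mouse 2. Gal was at 0.358 to 4.03 CPM in parental mice with a median of 1.67. In PS19 mice it was at 1.65 to 4.02 CPM with a median of 2.46. Within the APOE4 line its log2 fold change was 0.75 ± 0.51 (edgeR quasi-likelihood test, adjusted p = 0.366), and 0.27 without E4H mouse 2. Its log2 fold change was 0.53 ± 0.26 over all lines (adjusted p = 0.156), and 0.37 without E4H mouse 2, and it passed the adjusted p alone without E2H mouse 1 (0.71, adjusted p = 0.0463). In the APOE3 line Gal was at 1.31, 1.67 and 1.22 CPM in E3H and at 2.26, 3.47, 1.91 and 1.65 CPM in PS/E3H mice, which overlap by 1 mouse (log2 fold change 0.72 ± 0.29, adjusted p = 0.177, and 0.46 without PS/E3H mouse 2).

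Between APOE lines none of the 10 genes was called. In the study's survival cohorts, PS/E3H mice reached paralysis later than PS/E2H and PS/E4H mice. Line and age at sampling therefore cannot be told apart where PS19 mice of different lines are compared. Among parental mice the share of all genes called was 0.144% for E2H over E3H and 0.1% for E4H over E3H, and among PS19 mice it was 0.108% for PS/E2H over PS/E3H and 0.0197% for PS/E4H over PS/E3H. With tau in the model it was 0.315% for APOE2 over APOE3 and 0.0744% for APOE4 over APOE3. The lowest adjusted p of a peptide gene in these 6 comparisons was 0.230, for Pmch in E2H over E3H mice (log2 fold change -0.55 ± 0.15, edgeR quasi-likelihood test), where every E2H mouse was below every E3H mouse, and DESeq2 gave an adjusted p of 0.0229. Hcrt was also lower in every E2H than in every E3H mouse. Of all genes, 22.0% did not overlap between these groups in either direction. Pmch also lay lower in every E4H than in every E3H mouse, a comparison in which 12.4% of all genes did not overlap, and it was not called there (adjusted p = 0.909). Pomc in E2H over E3H mice had a log2 fold change of -1.02 ± 0.39 (adjusted p = 0.307) with overlapping groups, and of -0.65 without E3H mouse 3. Within the APOE3 line 1.32% of all genes were called between PS19 and parental mice, and none of the 10 were. The interactions of tau with APOE3 against APOE2 and APOE3 against APOE4 called 0 genes by edgeR, with 1265 and 847 genes at an unadjusted p under 0.05, and 12 and 9 genes by DESeq2.

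The peptide genes varied more between mice of a group than most genes did. The within-group SD of log2 CPM was 1.71 for Hcrt, 1.39 for Pmch, 1.2 for Agrp, 1.01 for Ghrh and 0.96 for Oxt, against a median of 0.25 over the 22863 genes tested. It was 0.39 for Cartpt, the lowest of the 10. That median covers genes of any level, and genes of like level were not compared. Counts were 0 to 159 a library for Agrp and 0 to 33 for Ghrh, where counting error adds to the SD. Without E4H mouse 2 the SD of Hcrt was 0.79 and that of Pmch 0.47, above 80.5% and 67.3% of genes, while that of Oxt was 0.77, that of Ghrh 0.93 and that of Agrp 1.24.

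The variation was partly shared. After group means were removed, the mean log2 CPM of the 13 hypothalamic transcription factors was correlated with each of the 10 genes over 21 mice. By Pearson's r 6 of the 10 passed, and by Spearman's rho 5, at a Benjamini-Hochberg adjusted p under 0.05 over the 10 relations. These were permutation tests within groups, 2-sided, with 100000 permutations. The share of all genes that would pass with this score was not computed, so these counts have no background to be read against. For Oxt r was 0.76 (p = 0.00429, adjusted p = 0.0117, permutation test) and rho 0.70 (p = 0.00401, adjusted p = 0.0127). For Agrp r was 0.67 (p = 0.00098, adjusted p = 0.0098, permutation test) and rho 0.77 (p = 0.00081, adjusted p = 0.0081). For Pmch r was 0.69 (p = 0.00468, adjusted p = 0.0117, permutation test) and rho 0.68 (p = 0.00509, adjusted p = 0.0127). Without the 2 mice farthest from the median score, E4H mice 1 and 2, r was 0.56 for Oxt, 0.82 for Agrp and 0.43 for Pmch. Pomc, Gal and Trh were the others that passed by r, with values of 0.75, 0.75 and 0.53, which were 0.61, 0.59 and 0.39 without E4H mouse 2; Trh did not pass by rho (adjusted p = 0.103). For Cartpt r was 0.24 (p = 0.227, adjusted p = 0.252, permutation test) and rho 0.21 (p = 0.355, adjusted p = 0.407). For Hcrt r was 0.56 (p = 0.172, adjusted p = 0.215, permutation test) and rho 0.27, and r was 0.062 without those mice, so that it rested on them.

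**Figure D5:**
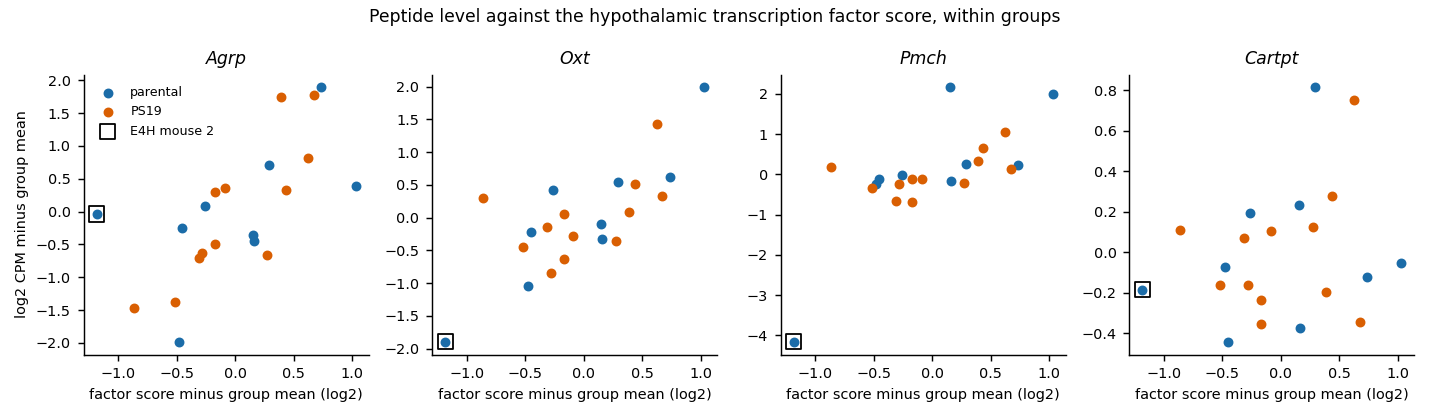
Level of Agrp, Oxt, Pmch and Cartpt (log2 CPM minus the group mean) against the mean log2 CPM of 13 hypothalamic transcription factors minus its group mean, for 9 parental (blue) and 12 PS19 (orange) mice, with E4H mouse 2 in a square. Pearson's r is 0.67 for Agrp, 0.76 for Oxt, 0.69 for Pmch and 0.24 for Cartpt.

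Among the 45 pairs of peptide genes, 43 had an r above 0, with a median of 0.45, and a median of 0.33 without E4H mouse 2. None of the 45 passed by r at an adjusted p under 0.05, and 2 passed by rho (permutation tests within groups). Pmch and Oxt had an r of 0.74 (p = 0.0106, adjusted p = 0.0853) and a rho of 0.76 (p = 0.0007, adjusted p = 0.0315), with an r of 0.84 without the 2 mice farthest from the median of Pmch. Agrp and Oxt had an r of 0.47 (p = 0.00371, adjusted p = 0.0853) and a rho of 0.69 (p = 0.0014, adjusted p = 0.0315), with an r of 0.37 without the 2 mice farthest from the median of Agrp. The highest r, 0.93 for Hcrt and Pmch (p = 0.0168, adjusted p = 0.0944) with a rho of 0.62 (p = 0.0359, adjusted p = 0.115), was 0.54 without E4H mouse 2.

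The genes most like each peptide gene, by Pearson's r of log2 CPM over 21 mice after group means were removed, are given as a description. For Pomc they were the hypothalamic factor Otp (r = 0.84), Irs4 (0.79) and Asb4 (0.78). For Hcrt they were Pmch (0.93), Calb2 (0.88) and Armh1 (0.87), and for Pmch they were Hcrt (0.93), Sytl4 (0.89) and Phc3 (0.89). For Gal they were Dgkk (0.88), Foxa1 (0.86) and Pmch (0.86), and for Oxt they were Gm11454 (0.83), the hypothalamic factor Hmx3 (0.81) and Gabre (0.80). For Agrp they were Hapln2 (0.87), Shisa6 (0.87) and Cfap157 (0.85), and for Cartpt they were Rln3 (0.86), Ece2 (0.84) and BC035947 (0.82). For Avp they were Trarg1 (0.79), Tunar (0.79) and Rasl2-9 (0.78), for Trh Pde9a (0.86), Tmie (0.86) and Tcf3 (0.79), and for Ghrh Mphosph6 (0.81), Gm47826 (0.80) and Gm16998 (0.80). Without E4H mouse 2 the same 3 genes led for Agrp, whereas none of the 3 did for Pomc, Hcrt, Pmch, Oxt or Avp.

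Receptors and processing enzymes of these peptides passed the adjusted p in part, with changes of less than 2-fold. Of 15 tested receptors of the peptides, 1 was higher and 2 were lower in PS19 mice by adjusted p alone, beside 21% of all genes, and 0 were called. Those were Mrap2, an accessory protein of the melanocortin receptors (log2 fold change 0.32, edgeR quasi-likelihood test, adjusted p = 0.0217), the oxytocin receptor Oxtr (-0.34, adjusted p = 0.0236) and the receptor of Trh, Trhr (-0.65, adjusted p = 3.30e-05). Of 16 energy hormone receptors and their signalling genes, 1 was higher and 5 were lower, among them the neuropeptide Y receptors Npy1r (-0.37), Npy2r (-0.57) and Npy5r (-0.37), while Socs3, an inhibitor of cytokine and leptin signalling, was higher (0.84). Of 14 genes of prohormone processing and dense-core granules, 5 were higher and 0 lower, among them the carboxypeptidase Cpe (0.33) and the granins Scg2 (0.39) and Scg3 (0.32). Of 23 tested other neuropeptides, Vip (0.53) and Pnoc (0.34) were higher and Cck (-0.32) and Grp (-0.57) lower. None of the 13 hypothalamic transcription factors passed the adjusted p, and their median log2 fold change was 0.25. These genes are named by adjusted p without the 2-fold limit and outside the rule for named genes, and were chosen after their values were seen. In the marker lists the genes called beside Prl and Gfap included Slc6a5 (2.09), Tph2 (2.0), Aif1 (1.02) and C1qa (1.84), each higher in PS19 mice, of which the first pair marks hindbrain neurons and the others mark microglia.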

How the data were processed

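The authors made stranded poly(A) libraries from pulverized forebrain, trimmed reads with cutadapt, aligned them to GRCm38 with HISAT2 and quantified transcripts with StringTie. They deposited whole-number counts per gene, without normalization, for 55401 genes, and deposited FPKM values, already scaled for length and library size, for 37538 genes. How counts were derived, and whether strand was used, is not given in the sources used here. Nothing states that mice of a group came from separate litters or cages.

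The 10 genes and all gene lists were chosen with earlier results of these data known. Counts were fitted with edgeR 4.0.16 in R 4.3.3 (TMM, filterByExpr with a minimum count of 10, quasi-likelihood F test), each pair of groups on its own mice, tau and line effects additively over 21 mice, and interactions over 4 groups. Calls needed a Benjamini-Hochberg adjusted p under 0.05 over all genes and a fold of at least 2, with no limit on the fold in interactions. FPKM values were used for levels and, as log2(FPKM + 1), with limma 3.58.1. DESeq2 1.42.0, Python 3.11.15, SciPy 1.17.1 and matplotlib 3.10.9 were also used, and the fits were tested on simulated data. Named genes were the 10 members, genes of each list called in the additive fit, and the 3 genes most correlated with each member. Positions come from GENCODE transcripts of GRCm38.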

Additional observations from a re-analysis of the deposited data

Results flagged for a closer look

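In PS/E2H mice, the Cartpt level of 7.65 CPM in mouse 4 lay far below the other 3, which were at 10.5 to 10.6 CPM. In PS/E3H mice, the Cartpt level of 18.9 CPM in mouse 2 lay far above the other 3, which were at 8.77 to 10.01 CPM. These were 2 of 30 groups of 4 mice examined by Dixon's criterion, which flags about 1 in 20 groups by chance. PS/E3H mouse 2 also had the highest Pmch, Hcrt, Oxt and Trh levels of all mice.

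For Cartpt, the difference between PS19 and parental mice went opposite ways in the APOE4 and the APOE2 line, with every mouse of each PS19 group outside the range of its parental group. The difference of the log2 fold changes was 1.34 ± 0.22 (edgeR quasi-likelihood test, adjusted p = 0.182). The E2H and E4H parental mice also differed from each other, and the cause was not tested.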

How the results depend on the processing

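No peptide gene was called in 348 of 352 alternative counts over the 16 comparisons. The exceptions were 1 gene in PS/E4H over E4H with no limit on the fold and 1 without the libraries with low Xist, an alternative chosen after seeing the data (both Cartpt), 0 to 1 there with single mice left out (Oxt without E4H mouse 1), and 1 in the interaction of tau with APOE4 over APOE2 by DESeq2 (Cartpt). Of 33 fold changes given, 10 of 746 alternatives reversed the sign. With single mice left out in PS/E4H over E4H, Pomc ranged from -0.73 (without E4H mouse 2) to 0.37 (without E4H mouse 1), Hcrt from -0.22 (without PS/E4H mouse 2; -0.060 without E4H mouse 2) to 1.57, and, with their lowest values without E4H mouse 2, Pmch from -0.031 to 1.05, Trh from -0.014 to 0.51 and Ghrh from -0.050 to 0.75. Pomc was 0.072 there with a replicate block. In PS/E3H over E3H, Cartpt ranged from -0.26 (without PS/E3H mouse 2) to 0.59, with -0.15 and -0.14 without E3H mice 1 and 3. By adjusted p alone, DESeq2 also passed Pmch in PS/E2H over E2H, Pmch in E2H over E3H and Cartpt in E4H over E2H (7.0e-06). The cause was not tested.

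The number of all genes called moved more. It was 595 for tau over all lines, 81 with log2(FPKM + 1) and 4806 with no limit on the fold. It was 621 in PS/E4H over E4H (132 with log2(FPKM + 1), 3252 with no limit, 384 without E4H mouse 2), 281 in PS/E3H over E3H (59, 1141, and 77 to 494 with mice left out) and 100 in PS/E2H over E2H (31, 155, and 30 to 99). DESeq2 called 261 in PS/E2H over E2H. Between APOE lines it was 4 to 72 and, over the alternatives, 0 to 757.

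Same-numbered mice showed little shared deviation (r from -0.12 to 0.10 over 30 pairs). With so few mice a group, this cannot tell whether same-numbered mice shared a batch or a cage. A replicate block called none of the 10 genes. Fits without the high-Xist libraries were not run, since too few mice remained, and no library passed 5 times the median pituitary level, so that alternative was not run. With the hypothalamic factor score in the model the fold change of Agrp over all lines was 0.79 in place of 1.17, on the log2 scale. Counts of 0 to 33 limit Ghrh.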
